A study of Mus musculus with 24 samples.

Results

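Brd2 and the genes that work with it in the control of transcription were followed in the mouse kidney after myocardial infarction (MI). The 5 genes were Brd2, Brd3, Hexim1, Cdk9 and Ccnt1, out of 56941 genes in the count table and 12780 genes with enough counts to be tested. All 5 were among the genes tested. They were chosen around Brd2, which was itself selected on its measured fold change and adjusted p at 28d post-MI against sham in these same kidneys. The comparison of 28d post-MI with sham is therefore given for all 5 genes as values with no test. The same holds for Brd2 in the comparison of 28d with 5d post-MI, and the direction of Brd2 at 28d is not a finding of its own.

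Young adult male wild-type C57BL/6J mice had the left anterior descending artery (LAD) of the heart tied off for good, which infarcts the left ventricle, or sham surgery without ligation. Kidneys were taken 5d or 28d after the ligation, and RNA was sequenced from its 3′ end with molecular identifiers. The labels list 24 kidneys, and 22 could be matched to a column of counts, namely 8 after sham surgery, 8 taken 5d post-MI and 6 taken 28d post-MI. All mice, sham included, had isoflurane anesthesia after an injection of the opioid buprenorphine. No gene was targeted, and no other drug is named by the study. The sham kidneys, taken 5d after surgery, served as controls for both times. Time since surgery, age and infarction therefore cannot be told apart at 28d. Total counts per kidney ran from 2280618 to 3786275 in the sham group, from 2351162 to 3382058 in the 5d group and from 2522894 to 3269306 in the 28d group.

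BRD2, BRD3 and the testis protein BRDT belong to the BET family, whose members carry paired bromodomains that bind acetylated lysines on histone tails. At promoters and enhancers they help to bring in P-TEFb, a kinase made of CDK9 and a cyclin T, which phosphorylates RNA polymerase II and the factors that hold it paused near the start of genes. HEXIM1, together with the 7SK RNA and the proteins LARP7 and MEPCE, keeps a share of P-TEFb inactive. Drugs that displace BET proteins from chromatin typically raise HEXIM1 mRNA, which is used as a marker of exposure to them.

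In the annotation of the GRCm38 build, Brd2 (ENSMUSG00000024335) lies on the minus strand of chromosome 17 from 34112023 to 34122634, within the major histocompatibility complex (MHC). It has 19 annotated transcripts, of which 5 are protein coding and 7 retain an intron. Hexim1 (ENSMUSG00000048878) lies on the plus strand of chromosome 11 from 103116231 to 103119725 and has 1 transcript. Brd3 (chromosome 2, 27445579 to 27507662), Cdk9 (chromosome 2, 32705784 to 32713076) and Ccnt1 (chromosome 15, 98538689 to 98570923) are all on the minus strand.

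Start sites of the 5 genes were matched in RefSeq (GRCm38.p6), 3 for Brd2 and 1 for each of the others. Reads from the 3′ end cannot tell the starts of Brd2 apart. The stretches before the most upstream Brd2 start and before the Hexim1 start are shown. They are the only ones of the 7 start sites that held the core of the NRF1 motif, GCATGCGC. Brd2 and Hexim1 also had the highest fold changes of the 5 genes at 28d. The stretches were thus picked with the fold changes known, and a link between motif and expression was not tested. Exons that took up more than 30 bases of the windows were left out. The Brd2 stretch is chr17:34122608-34122821 on the minus strand, and it stops at an exon of H2-DMa, a gene that runs the other way. Its last 27 bases, with the NRF1 core, lie in the first exon of a non-coding Brd2 transcript. The Hexim1 stretch is chr11:103116075-103116230 on the plus strand. Capitals mark the motifs found, 5′ to 3′.
Brd2: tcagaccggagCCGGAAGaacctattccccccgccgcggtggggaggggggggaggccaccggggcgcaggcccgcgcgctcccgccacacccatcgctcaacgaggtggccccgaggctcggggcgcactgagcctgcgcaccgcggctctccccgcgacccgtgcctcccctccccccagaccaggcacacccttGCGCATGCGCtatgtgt
Hexim1: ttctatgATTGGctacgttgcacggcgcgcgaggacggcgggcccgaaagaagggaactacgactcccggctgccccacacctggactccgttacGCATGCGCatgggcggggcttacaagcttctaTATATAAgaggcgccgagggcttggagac

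In the Brd2 stretch the first capitals are the ETS core CCGGAAG, and the last are the NRF1 core read on both strands, where its 2 copies overlap. In the Hexim1 stretch the capitals are, in order, the CCAAT box on the reverse strand, the NRF1 core and the TATA-like letters TATATAA. Over the 250 bases before 32851 start sites, either strand, the NRF1 core was present in 2.26%, the ETS core in 6.91%, the CCAAT box in 33.8% and TATATAA in 3.04%. The windows of Cdk9 and Ccnt1 held the ETS core, that of Cdk9 also held a CCAAT box, and that of Brd3 held none of the motifs searched. The cyclic AMP response element TGACGTCA (1.55% of all) and a heat shock element (0.466% of all) were in none of the 7 windows. These are matches of letters, with no binding measured here.

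Expression is given as counts per 1000000 counts of a library (CPM) after scaling for library composition. Values are compared between kidneys for 1 gene at a time and not between genes. Counts of kidneys above or below every kidney of another group were made for the 5 genes and the gene lists below, not over all genes. Brd2 was at 149.8 to 179.2 CPM in the 8 sham kidneys, with a median of 163.8. At 5d post-MI it was at 143.1 to 190.6 CPM, with a median of 159.9. At 28d post-MI the 6 kidneys were at 226.9, 214.1, 197.6, 223.2, 167.3 and 225.4 CPM. Of these 6 kidneys, 5 were above every sham kidney and above every kidney at 5d, and the remaining one, replicate 6, lay within the range of both other groups. The means were 164.5 ± 11 (SD, n = 8) in sham, 162 ± 13.5 (SD, n = 8) at 5d and 209.1 ± 23.2 CPM (SD, n = 6) at 28d. These rest on 375 to 719 Brd2 counts per kidney.

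**Figure D1:**
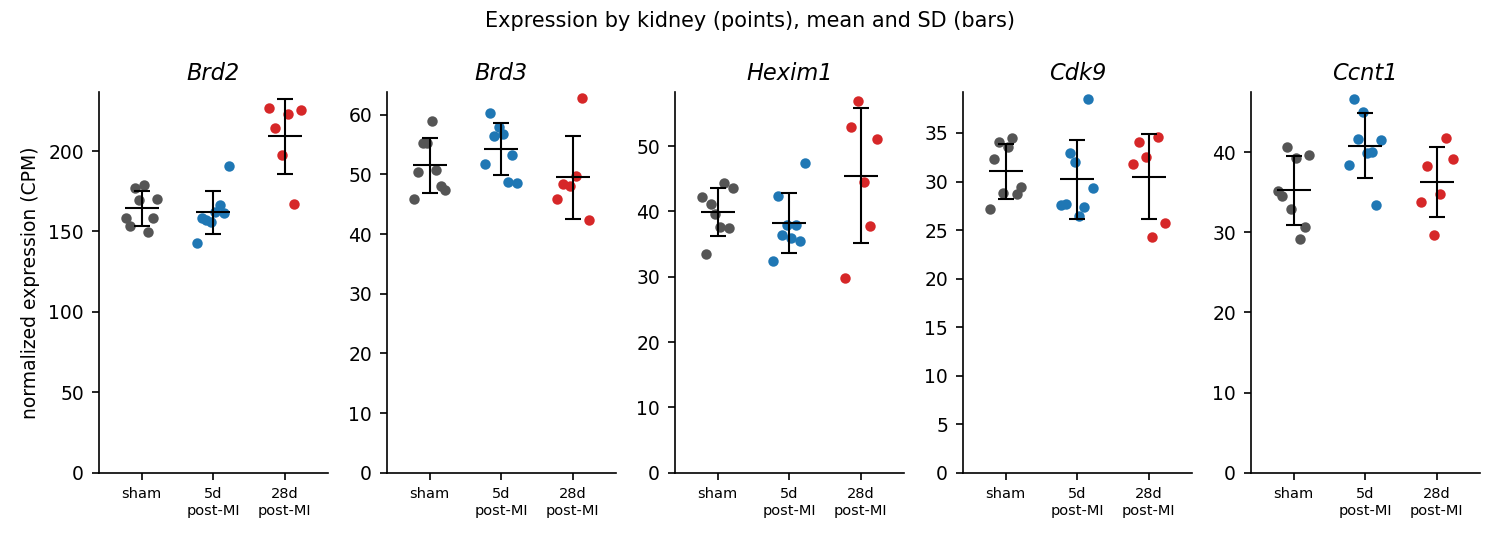
Normalized expression (CPM, from 0) of Brd2, Brd3, Hexim1, Cdk9 and Ccnt1 in kidneys of the 3 groups, with 1 point per kidney, the mean as a horizontal line and the SD as error bars. For Brd2, 5 of the 6 kidneys at 28d lie above all others, while the groups overlap for the other 4 genes.

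Against sham, Brd2 at 28d differed by 0.35 on the log2 scale (SE 0.063, 95% interval 0.22 to 0.47), which is 1.27-fold. Against 5d post-MI the difference was 0.37 (SE 0.063, 95% interval 0.24 to 0.50), or 1.29-fold. Brd2 was 1 of 3 genes called at 28d against sham (0.0235% of 12780 genes tested, adjusted p under 0.05), and this call is what chose it. At 5d post-MI Brd2 did not pass the test, with a log2 fold change of -0.02 (SE 0.059, 95% interval -0.14 to 0.10, adjusted p = 0.962 by edgeR's quasi-likelihood test). Both comparisons with sham use the same 8 sham kidneys. Of all genes tested, 7.07% had a larger absolute log2 fold change than Brd2 at 28d against sham.

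With each kidney left out in turn, the Brd2 difference was 0.32 to 0.40 against sham and 0.34 to 0.43 against 5d. Against sham, the adjusted p that chose Brd2 was under 0.05 in 16 of 22 such fits and not without sham replicate 2, 6 or 7 or without 28d replicate 2, 4 or 7. These counts describe how the choice of the gene depends on single kidneys and are no support for the difference. Leaving out 28d replicate 6, the low kidney, gave the highest difference in both comparisons. Adrenal transcripts stood out in 3 kidneys. The summed level of 6 adrenal markers was 67 to 734 CPM in 2 sham kidneys and 1 kidney at 5d, and at most 3.96 CPM in the other 19. The 2 sham kidneys, replicates 2 and 6, were at 153.6 and 149.8 CPM for Brd2, the lowest of the sham group. Without the 3 kidneys the Brd2 difference against sham was 0.31 (SE 0.069) with an adjusted p above 0.05, and against 5d it was 0.36 (SE 0.066).

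**Figure D2:**
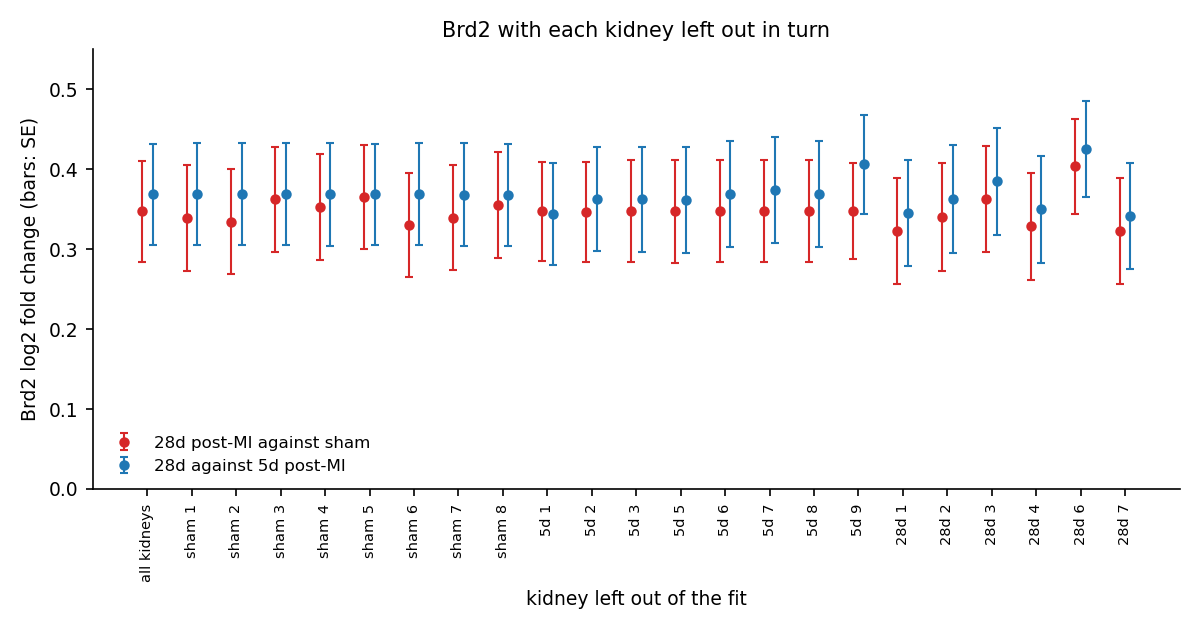
Brd2 log2 fold change (y axis, bars are the SE) of the 28d group against sham and against the 5d group, with all kidneys and with each of the 22 kidneys left out in turn (x axis). Every point lies between 0.32 and 0.43.

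Brd3, a close relative of Brd2 with the same pair of bromodomains, was not called in the comparisons tested. Brd3 was at 45.9 to 58.9 CPM in sham (median 50.6), at 48.6 to 60.3 CPM at 5d (median 54.9) and at 42.3 to 62.8 CPM at 28d (median 48.2). The 3 groups overlapped, and the 28d kidney with the lowest Brd2, replicate 6, had the highest Brd3 of all kidneys, 62.77 CPM. The log2 fold change of Brd3 was 0.08 at 5d against sham (SE 0.074, adjusted p = 0.87 by edgeR) and -0.06 at 28d against sham (95% interval -0.22 to 0.11). Between 28d and 5d it was -0.13 (SE 0.081, adjusted p = 0.668 by edgeR). Brdt stayed at 3 to 14 counts per kidney and was not tested.

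Hexim1, the P-TEFb inhibitor, was at 33.4 to 44.4 CPM in sham (median 40.4) and at 32.5 to 47.4 CPM at 5d (median 37.2). At 28d post-MI the 6 kidneys were at 29.8, 53.0, 56.9, 44.5, 37.7 and 51.1 CPM. Of these, 4 were above every sham kidney and 1, replicate 1, was below every sham kidney, which made Hexim1 the most variable of the 5 genes at 28d (coefficient of variation 22.6%, against 9.12% in sham). The log2 fold change at 28d against sham was 0.19 (95% interval -0.02 to 0.40). At 5d against sham it was -0.06 (SE 0.097, adjusted p = 0.937 by edgeR). Between 28d and 5d it was 0.25 (SE 0.104, unadjusted p = 0.022), which did not pass after adjustment (adjusted p = 0.44 by edgeR). Without 28d replicate 1 the difference between 28d and 5d was 0.34, still short of the threshold (adjusted p = 0.116 by edgeR), and without replicate 3 it was 0.18.

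Cdk9, the kinase of P-TEFb, was at 27.2 to 34.5 CPM in sham (median 30.9), at 26.4 to 38.5 CPM at 5d (median 28.5) and at 24.3 to 34.6 CPM at 28d (median 32.2). The groups overlapped, and every fitted log2 fold change was within 0.04 of 0. The 95% interval at 28d against sham was -0.22 to 0.18. At 5d against sham adjusted p = 0.961, and at 28d against 5d adjusted p = 0.991, both by edgeR.

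Ccnt1, the cyclin T1 partner of CDK9, was at 29.2 to 40.7 CPM in sham (median 34.9), at 33.4 to 46.6 CPM at 5d (median 40.8) and at 29.7 to 41.7 CPM at 28d (median 36.5). At 5d post-MI, 4 of 8 kidneys were above every sham kidney. The log2 fold change at 5d was 0.22 (SE 0.083, unadjusted p = 0.0113) and did not pass after adjustment (adjusted p = 0.472 by edgeR). At 28d it was 0.05 against sham (95% interval -0.14 to 0.23) and -0.17 against 5d (SE 0.091, adjusted p = 0.593 by edgeR). Its highest mean was at 5d, whereas Brd2 had its highest mean at 28d.

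**Figure D3:**
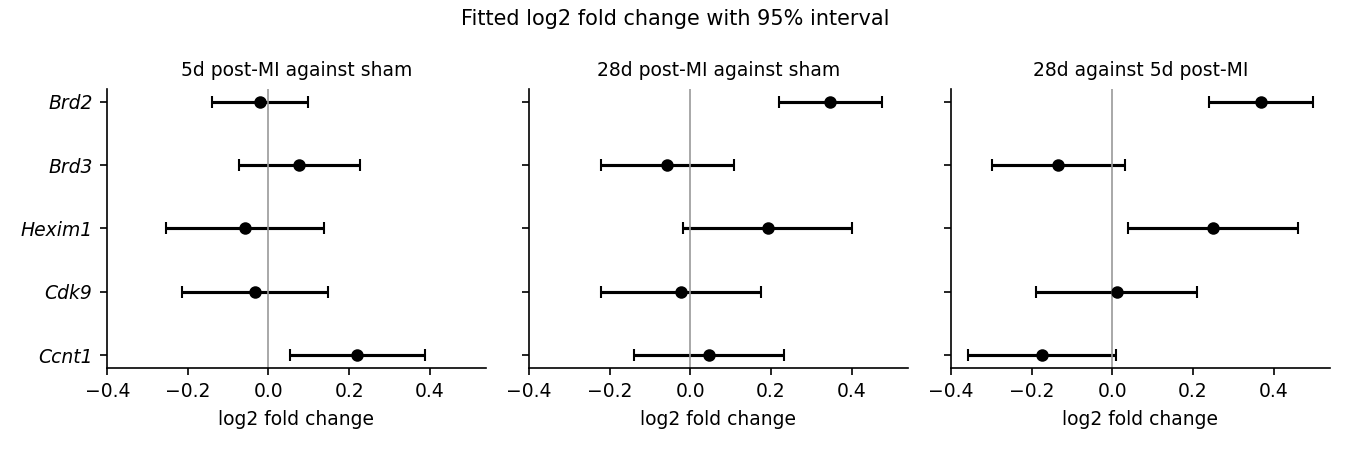
Fitted log2 fold change (x axis) with its 95% interval for Brd2, Brd3, Hexim1, Cdk9 and Ccnt1 in the 3 comparisons. Brd2 is at 0.35 and 0.37 in the comparisons that include the 28d kidneys, which chose it, and at -0.02 at 5d against sham. The intervals of Brd3 and Cdk9 include 0 in the comparisons tested for them.

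At 5d post-MI 0 of the 5 genes were called by edgeR, DESeq2 or limma voom, with 0.0704% of all genes called by the same test, and 1 of 5, Ccnt1, had an unadjusted p under 0.05, with 7.9% of all genes. At 28d against 5d 1 of 5, Brd2, was called, with 0.415% of all genes, and Brd2 and Hexim1 had an unadjusted p under 0.05, with 9.05% of all genes. Nothing is read from the count that holds Brd2.

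Whether the 5 genes varied together from kidney to kidney was examined after the mean of each group had been subtracted, in 10 pairs over 22 kidneys. No pair passed the permutation test after adjustment. For Brd2 and Hexim1, Pearson's r was 0.24 (permutation p = 0.442, adjusted p = 0.743) and Spearman's rho was 0.21 (permutation p = 0.387), and without the 2 kidneys farthest from the median of Brd2, 5d replicate 9 and 28d replicate 6, r was -0.07. For Brd2 and Brd3, r was -0.39 (permutation p = 0.126, adjusted p = 0.42) and rho was -0.17 (permutation p = 0.479), and r was 0.07 without the same 2 kidneys. Both of these values of r turned in sign without the 2 kidneys. For Brd2 and Ccnt1, r was 0.14 (permutation p = 0.56, adjusted p = 0.743) and rho was 0.21 (permutation p = 0.371), and r was 0.44 without the same 2 kidneys.

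Outside the 5 genes, 105 other genes of transcription control in 9 lists were examined, and 97 of them were tested. After adjustment 0 were called in each comparison by edgeR, and 0 by DESeq2 and by limma voom. With an unadjusted p under 0.05, 7 genes (7.22%) differed at 5d against sham, 10 (10.3%) at 28d against sham and 7 (7.22%) at 28d against 5d, beside 7.9%, 8.68% and 9.05% of all genes tested. The median log2 fold change of these genes was 0.02, 0.00057 and -0.012, beside 0.000176, -0.00121 and -0.00459 over all genes. The shares were close to those of all genes, so the lists as a whole are no result.

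In the P-TEFb and 7SK list, 3 of 8 genes tested had an unadjusted p under 0.05 at 28d against 5d, beside a share of 9.05% over all genes tested. They were Hexim1, Mepce and Larp7, all with higher values at 28d, and none was called after adjustment. The list had a median log2 fold change of 0.014, with 5 genes higher and 3 lower. Mepce, which caps the 7SK RNA, was at 42.0 ± 3.94 CPM at 5d (SD, n = 8) and at 49.6 ± 4.43 CPM at 28d (SD, n = 6). For Mepce 5 of 6 kidneys at 28d were above every kidney at 5d, a count not made over all genes. Its log2 fold change was 0.24 (SE 0.082, adjusted p = 0.273 by edgeR). Larp7, which binds and stabilises 7SK, had a log2 fold change of 0.27 (SE 0.132, adjusted p = 0.541 by edgeR). Ccnt2, the other cyclin T gene, was at 39.0 ± 3.25 CPM in sham (SD, n = 8) and 34.1 ± 3.46 CPM at 28d (SD, n = 6), a log2 fold change of -0.19 (SE 0.088, adjusted p = 0.534 by edgeR). Neither Srsf2, a splicing factor, nor Ppm1g, a phosphatase that acts on P-TEFb, had an unadjusted p under 0.05 in any comparison.

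Among 6 tested partners of BET proteins, Jmjd6, a hydroxylase that binds BET proteins, was at 26.8 ± 2.62 CPM in sham (SD, n = 8) and 33.2 ± 6.19 CPM at 28d (SD, n = 6). Of the 28d kidneys, 5 of 6 were above every sham kidney and 1 was below every sham kidney, with a log2 fold change of 0.31 (SE 0.107, adjusted p = 0.364 by edgeR). Chd4, a nucleosome remodeller, and the histone methyltransferases Nsd2 and Nsd3 had log2 fold changes of -0.02, -0.04 and -0.07 at 28d against sham. The super elongation complex, which carries active P-TEFb to genes, had 0 of 8 tested genes with an unadjusted p under 0.05 in each comparison.

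Of 16 tested pausing and elongation factors, 2 had an unadjusted p under 0.05 at 28d against sham, beside a share of 8.68% over all genes tested. Nelfa, a subunit of the complex that holds RNA polymerase II paused, was at 15.8 ± 2.06 CPM in sham (SD, n = 8), 16.7 ± 2.15 CPM at 5d (SD, n = 8) and 20.8 ± 2.26 CPM at 28d (SD, n = 6). The log2 fold change was 0.39 at 28d against sham (SE 0.113, adjusted p = 0.259 by edgeR) and 0.32 at 28d against 5d (adjusted p = 0.297). The other subunits, Nelfb, Nelfcd and Nelfe, had log2 fold changes of -0.01, -0.14 and 0.03 at 28d against sham. Ctr9, a subunit of the PAF1 elongation complex, had a log2 fold change of 0.22 (SE 0.086, adjusted p = 0.454 by edgeR), and Polr2a, the largest subunit of RNA polymerase II, of -0.01.

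Of 31 other tested genes with a bromodomain, 5 had an unadjusted p under 0.05 at 28d against sham, beside a share of 8.68% over all genes tested. These were Smarca2, an ATPase of the BAF remodelling complex, with a log2 fold change of 0.25, Bptf of the NURF remodelling complex with 0.20, Brd1, a scaffold of a histone acetyltransferase complex, with 0.24, Baz1a of the ACF remodelling complex with 0.42 and the acetyltransferase Kat2a with -0.18. The lowest adjusted p among them was that of Smarca2 (0.262 by edgeR). Of the 31, 4 had an unadjusted p under 0.05 at 5d against sham, beside a share of 7.9% over all genes tested. Baz1a was among them, with a log2 fold change of 0.34 (adjusted p = 0.608 by edgeR), so that its mean was above that of sham at both times. Atad2b and Baz2b had 0.28 and 0.19. Kat2b, an acetyltransferase related to Kat2a, was at 45.1 ± 3.23 CPM in sham (SD, n = 8) and 38.6 ± 3.29 CPM at 5d (SD, n = 8). Its log2 fold change was -0.22 (SE 0.076, adjusted p = 0.431 by edgeR). For Kat2b 7 of 8 kidneys at 5d were below every sham kidney, a count not made over all genes. At 28d against 5d Kat2b, Baz2b and Smarca2 had an unadjusted p under 0.05, with 0.21, -0.27 and 0.16 (adjusted p = 0.41, 0.329 and 0.534 by edgeR). Of 9 tested transcription kinases and their partners, Cdk19, a kinase of the Mediator complex, had an unadjusted p under 0.05 at 5d against sham, with 0.24 (adjusted p = 0.598 by edgeR). Of 15 tested histone deacetylases, Hdac2 had an unadjusted p under 0.05 at 28d against sham, with a log2 fold change of 0.19. At 5d against sham the deacetylases Sirt6 and Sirt7 had log2 fold changes of -0.60 and -0.22, and the adjusted p of Sirt6 was 0.26 by edgeR. Sirt6 was low, at 7.44 ± 1.57 CPM in sham (SD, n = 8) and 4.95 ± 0.88 CPM at 5d (SD, n = 8). The means of Sirt7 were 49.8 and 42.6 CPM in the same order. At 28d against 5d Sirt6 had 0.47 (adjusted p = 0.411 by edgeR).

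**Figure D4:**
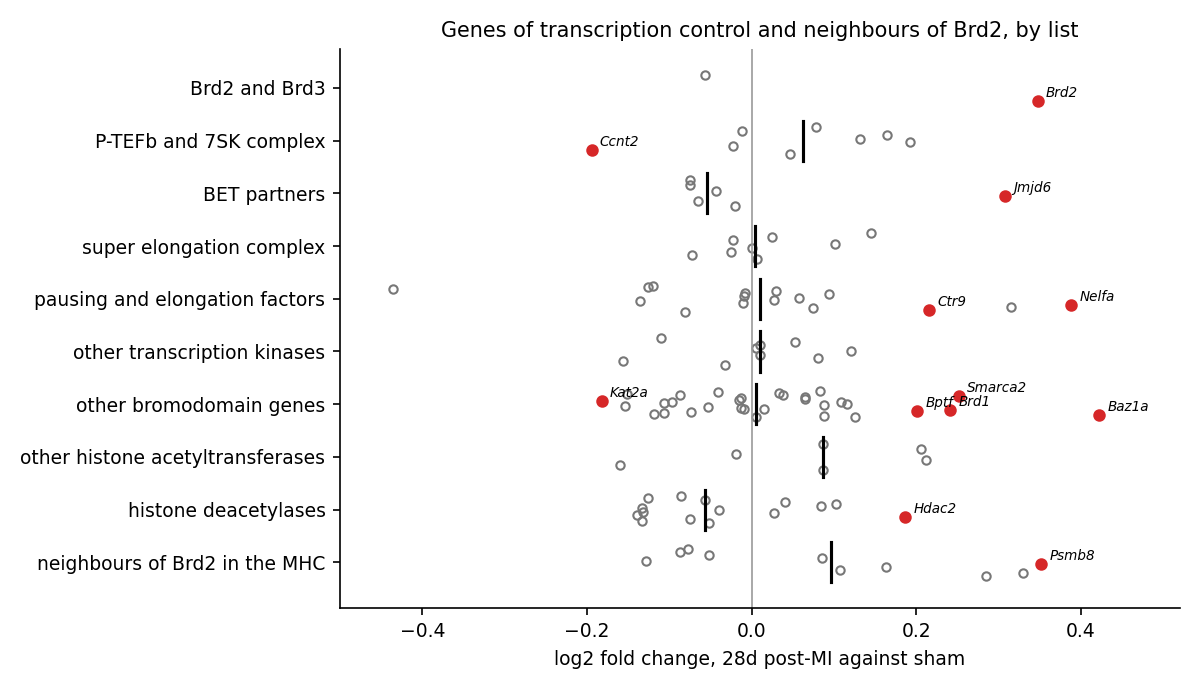
Log2 fold change at 28d post-MI against sham (x axis) for Brd2 and Brd3, for the tested genes of 8 further lists of transcription control and for the neighbours of Brd2 in the MHC (rows). Each circle is a gene, filled red and named where its unadjusted p is under 0.05, and black bars are the medians of the lists. Most genes lie close to 0, and Baz1a (0.42), Nelfa (0.39), Psmb8 (0.35) and Brd2 (0.35), the gene this comparison chose, lie farthest to the right.

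Genes known to respond to BET inhibitors were mostly low in these kidneys, and 5 of 9 were tested. Myc, whose transcription depends on BET proteins in many cell types, was at 3.19 ± 1.28 CPM in sham (SD, n = 8), 4.07 ± 1.45 CPM at 5d (SD, n = 8) and 2.95 ± 0.814 CPM at 28d (SD, n = 6), and did not pass the test at either time (adjusted p = 0.815 and 0.948 by edgeR). Ccr2, a chemokine receptor of monocytes, had a log2 fold change of 0.72 at 28d against sham (SE 0.326, adjusted p = 0.536 by edgeR). Besides Hexim1, the other tested genes were Serpini1, an inhibitor of serine proteases, with -0.33 and Zcchc24 with -0.09.

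Brd2 sits among MHC genes, and H2-DMa, a class II gene that helps to load peptides, overlaps its 5′ part on the opposite strand from 34119541 to 34122634. The source used here does not state whether counting used the strand, and without strand reads in the overlap cannot be told apart. Reads come from 3′ ends, and the overlap is in the 5′ part of both genes. The 3′ ends of the annotated spans lie outside it, at 34112023 for Brd2 and 34139101 for H2-DMa. How many reads fell in the overlap was not counted. H2-DMa had 595 counts over all 22 kidneys, which is within the range of Brd2 counts in a single kidney, at 8.43 ± 2.13 CPM in sham (SD, n = 8), 8.99 ± 2.71 CPM at 5d (SD, n = 8) and 10.6 ± 1.22 CPM at 28d (SD, n = 6). Its difference between 28d and sham was 0.33 on the log2 scale (adjusted p = 0.633 by edgeR). Of the 10 tested neighbours, 1 had an unadjusted p under 0.05 at 28d against sham, beside a share of 8.68% over all genes tested. It was Psmb8, a subunit of the immunoproteasome, with 0.35 (SE 0.146, adjusted p = 0.48 by edgeR). Psmb9, another immunoproteasome subunit, had -0.37 at 5d against sham (adjusted p = 0.598 by edgeR). At 28d against 5d Psmb8 had the lowest p of the neighbours, with 0.57 (SE 0.150, adjusted p = 0.0759 by edgeR), and H2-Ab1, a class II chain, had 0.33 (adjusted p = 0.541). At 28d against sham 6 of the 10 tested neighbours were higher and 4 were lower. Rxrb and Ring1, which lie in the same region and are not immune genes, had -0.05 and 0.08. The other lower ones were Psmb9, Tap1 and Tap2, with -0.13, -0.09 and -0.08.

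The genes whose level followed that of Brd2 most closely over the 22 kidneys, by Pearson's r on the log2 scale among 12780 genes, were Lncppara (0.808), Osgin1 (0.798), Hist1h4i (0.784), Adamts1 (0.778) and Mat2a (0.777). Group means were kept in this r, and Brd2 was chosen for its high values at 28d. That these 5 genes had their highest mean at 28d, as Brd2 did, was largely fixed by that choice. For Osgin1 the means were 59.4 CPM in sham, 57.9 CPM at 5d and 108.5 CPM at 28d. Adamts1, a secreted protease, had means of 24.6, 26.1 and 35.7 CPM in the same order, and Mat2a, which makes S-adenosylmethionine, of 405.9, 407.1 and 470.8 CPM. Hexim1 ranked 447 (r = 0.440) and Brd3 ranked 12503 (r = -0.478), against 2111 (r = 0.235) and 12197 (r = -0.394) with the group means removed. With the group means removed, the 5 closest genes were Mtrr (0.792), Pik3r1 (0.773), Utp15 (0.744), Ncapd3 (0.725) and H3f3a (0.718), none of which was among the first 5. These values are descriptions, and all genes of a kidney share its library.

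Other features of the kidneys moved with the groups, and their part in the Brd2 difference was not tested. The correlations given here had the mean of each group subtracted, so they cannot show what part a feature had in that difference. The 12 immediate early genes, such as Fos, Jun and Egr1, had a summed level of 908 to 2099 CPM in sham, 316 to 971 CPM at 5d and 1413 to 3284 CPM at 28d. At 28d against 5d, 10 of 12 were called with higher values at 28d (edgeR, adjusted p under 0.05), beside 0.415% of all genes tested. Of the 12, 0 were called at 5d against sham after adjustment by edgeR, beside 0.0704% of all genes. With an unadjusted p under 0.05 there were 11, all with lower values at 5d, beside 7.9% of all genes. The remaining one, Ier3, had a log2 fold change of -0.02. At 28d against sham all 12 had higher values, and 5 had an unadjusted p under 0.05, beside 8.68% of all genes. After adjustment 0 of the 12 were called there, beside 0.0235% of all genes. The within-group r of Brd2 with their sum was 0.18 (permutation p = 0.466, adjusted p = 0.698, rho = 0.19, permutation p = 0.426, and r = 0.17 without the 2 farthest kidneys). White adipocyte markers (8 genes) had a summed level of 519.9 to 2366 CPM in sham (median 1455), 238.2 to 1821 CPM at 5d (median 1273) and 489.9 to 1267 CPM at 28d (median 689.4). Brown adipocyte markers (5 genes) were at 24.96 to 380.1 CPM in sham, 3.03 to 288 CPM at 5d and 14.9 to 96.4 CPM at 28d. Plasma and B cell markers (8 genes, of which the B cell gene Ms4a1 was at 0 in every kidney at 28d) were at 27.1 to 58.9 CPM in sham, 16.5 to 73.6 CPM at 5d and 88.8 to 131.9 CPM at 28d. Of the 3 tested, Igkc and Jchain had higher means at 28d than in sham (79.6 against 24.4 CPM and 18.3 against 5.51 CPM). Ighm had a lower mean at 28d (6.13 against 8.18 CPM). Red blood cell markers (7 genes) were at 2229 to 4164 CPM in sham, 5009 to 19160 CPM at 5d and 1827 to 5166 CPM at 28d. Leukocyte markers (10 genes) were at 119.2 to 158.2 CPM, 94.8 to 136.1 CPM and 110.6 to 153.3 CPM in the same order. Kidney cell markers (10 genes) were present in all kidneys, with a summed level of 7284 to 8507 CPM. In 9 relations of Brd2 to these sums and to total counts within groups, none passed the permutation test after adjustment, and the strongest was that to adrenal markers (r = -0.34, permutation p = 0.057, adjusted p = 0.513, rho = -0.27, permutation p = 0.197, and r = -0.47 without the 2 kidneys farthest from the median). In whole kidney tissue, fewer cells of a type and less RNA per cell cannot be told apart.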

How the data were processed

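RNA of whole kidneys was sequenced by MACE, a 3′ end method. According to the study and the labels, the authors removed PCR duplicates by molecular identifiers, trimmed reads with Cutadapt and assigned them to genes with HTSeq. The labels' processing notes also list Bowtie2, and they and the methods name different genome builds, so coordinates here come only from GENCODE M21 and RefSeq (GRCm38). Strand use in counting is not given in the sources used here. The deposited raw counts per gene were analysed. The deposited columns headed TPM equal counts per 1000000 (CPM) within 5e-06 and served only for that check. The table has 48 columns of values, and 4 were left out because 1 column name occurs for 2 kidneys, one at 5d and one at 28d post-MI. Symbols were matched for 51948 of 56941 gene identifiers.

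Counts were fitted with edgeR 4.0.16 (R 4.3.3; TMM, filterByExpr with a minimum count of 10, robust quasi-likelihood F test, two-sided) with all 22 kidneys in 1 model and Benjamini-Hochberg adjustment over 12780 genes, called at 0.05. Standard errors and 95% intervals come from this fit. Alternatives were DESeq2 1.42.0, limma 3.58.1, other scalings and filters, the compared groups alone, a replicate block and leaving out each kidney. Leaving out kidneys with over 10 CPM of adrenal markers was chosen after seeing the data. Correlations used log2 CPM with group means removed and 100000 permutations within groups. Scripts were tested on simulated data. The members and lists were chosen with earlier results of these data known. Named genes were the members, genes of the transcription lists with an unadjusted p under 0.05, up to 3 more per list by size of change, MHC neighbours of Brd2 and the 5 genes most like it with and without group means. A few others, chosen after their values were seen, are named because they belong to the same complex or response as a named gene. Replicates are kidneys listed separately in the labels. The fits weigh a difference between groups against the spread between kidneys, and the permutations shuffle kidneys within groups. Of 71 pairs within groups, none agreed within counting noise (chi-square per degree of freedom 1.69 to 7.21). A gene counted in the lists is not reported here.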

Additional observations from a re-analysis of the deposited data

Results flagged for a closer look

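For Brd2, a contrast of the times after infarction, 28d against 5d post-MI, gave a log2 fold change of 0.37 (95% interval 0.24 to 0.50), with 6 of 6 kidneys at 28d above the mean at 5d. Brd2 was chosen for its high values in these 28d kidneys, so this contrast was largely fixed by the choice and is a description, not a finding of a difference between the times. In 15 groups of kidneys, 3 for each of the 5 genes, no single kidney stood apart by Dixon's criterion.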

How the results depend on the processing

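In 10 alternatives other than leaving out 1 kidney, the Brd2 log2 fold change was 0.31 to 0.36 at 28d against sham and 0.36 to 0.41 against 5d post-MI. Against sham, the comparison that chose Brd2, 1 of the 5 genes, Brd2 itself, had an adjusted p under 0.05 in 9 of these. Without the adrenal-positive kidneys, an alternative that also has fewer kidneys, 0 of the 5 had one (adjusted p of Brd2 = 0.116 by edgeR). With each kidney left out, 0 to 1 had one. These counts describe how the choice of Brd2 depends on the processing and are no support for the difference. At 5d against sham the Brd2 log2 fold change was -0.0587 to 0.0027 with each kidney left out, and above 0 only without 5d replicate 1.

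The numbers of genes called moved more. At 5d against sham, 9 genes were called, and 80 without the filter on low counts, 35 by DESeq2, 22 by limma voom, 22 without robust fitting, 2 with only the 2 groups compared, 2 with the replicate block, 2 without the adrenal-positive kidneys and 1 to 38 with each kidney left out. At 28d against sham, 3 genes were called, and 94, 30, 11, 8, 31, 24, 1 and 0 to 29 in the same order. At 28d against 5d, 53 genes were called, and 160 without the filter, 93 by DESeq2, 26 with only the 2 groups, 80 with the replicate block and 41 to 84 with each kidney left out. The causes were not tested.

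The Cdk9 log2 fold change at 28d against 5d, near 0 throughout, was -0.0015 with upper quartile scaling and -0.0277 to 0.0678 with each kidney left out, with the sign turned without 5d replicates 1 (-0.0075), 2 (-0.0077), 6 (-0.011) or 7 (-0.011) or 28d replicates 1 (-0.0018), 2 (-0.025), 3 (-0.0085) or 6 (-0.028). Spearman's rho for Cdk9 and Ccnt1 was 0.068, against a Pearson's r of -0.10.

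Replicate numbers did not pair the kidneys: over 18 same-number pairs the correlation of deviations was -0.127 to 0.0899, and 2 of 21 kidneys were closest to their own number. The replicate block changed no call among the 5 genes. Depth limits what can be said of Brdt, Myc and Sirt6, and 61 to 163 counts per kidney lie behind Hexim1, Cdk9 and Ccnt1.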
